A study of Rattus norvegicus with 21 samples.

Results

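Collagens are the main proteins of connective tissue, and the genes described here are 41 collagen genes and 11 genes whose products modify, fold or cross-link collagen, which makes 52 of the 14218 genes measured. They were chosen by name: every gene symbol of the form Col, number, a, number, plus the lysyl oxidases, the lysyl hydroxylases, 2 prolyl 4-hydroxylase alpha chains, the collagen chaperone Serpinh1 and the procollagen processing enhancer Pcolce. Loxl4, which belongs to the same set by name, and Col4a3, Col6a4, Col21a1 and Col28a1 were not analysed here.

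The samples came from 9 male, young adult Fischer 344 rats carrying BDEneu tumours, a model of intrahepatic cholangiocarcinoma, which arises from bile ducts within the liver. BDEneu is a rat cholangiocyte (bile duct cell) line that carries an activated neu (Erbb2) oncogene, so all tumours derive from 1 line. Tumour and right liver lobe were taken from rats 1 to 3 at day 10, from rats 4 to 6 at day 15 and from rats 7 to 9 at day 25, and the rats of day 25 also gave a peritoneal metastasis each. That makes 7 groups of 3 arrays, 21 arrays in all, in which the 3 replicates of a group are different rats. The right lobe is labelled normal liver, but every liver came from a rat that carried a tumour; livers of tumour-free rats were not analysed here. One label field of the day 25 livers names day 55, whereas the title and the source name day 25, and day 25 was used.

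A collagen chain is made in the endoplasmic reticulum, where prolyl 4-hydroxylases and lysyl hydroxylases modify it and 3 chains wind into a triple helix held by the chaperone that Serpinh1 encodes. After secretion, proteases trim the ends of fibrillar procollagens, an early step that Pcolce enhances, and lysyl oxidases cross-link the assembled fibrils. In liver, activated stellate cells and portal fibroblasts are the main makers of fibrillar collagen, and cholangiocarcinomas are known for a dense, collagen-rich stroma. Types I, III and V form the fibrils of such a stroma, type IV forms the sheet of basement membranes, and types XV and XVIII sit at basement membrane borders.

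Levels are log2 values of RMA, a summary of the probes of each gene that makes the arrays alike in overall distribution, so a difference of 1 is a 2-fold difference. Differences were tested with limma over all genes, with Benjamini-Hochberg adjustment, and a gene is called at an adjusted p under 0.05; each difference is given with its standard error (SE). Array medians lay between 5.98 and 6.06. Erbb2 was 8.72 to 10.73 in the 9 tumours, 9.47 to 10.80 in the metastases and 4.98 to 5.69 in the livers, so it set every tumour and metastasis apart from every liver. The median SD between the rats of a group over all genes was 0.11 to 0.18.

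Markers of several cell types also differed between the tissues. The mean level of 15 hepatocyte genes was 11.58 to 12.67 in the livers, 7.01 to 11.19 in the tumours and 5.32 to 5.87 in the metastases. The mean of 14 myofibroblast and fibroblast genes was 5.90 to 6.64 in the livers, 8.57 to 9.88 in the tumours and 8.32 to 9.89 in the metastases. Their ranges in liver and tumour did not overlap, and all 14 of these genes were higher in tumour, with a median difference of 2.48. Bile duct epithelium genes had means of 5.54 to 7.12 in the livers, 9.95 to 10.46 in the tumours and 10.49 to 10.61 in the metastases, and 8 of 9 were higher in tumour (median difference 4.42). Of 8 blood vessel genes 5 were higher and 2 lower, with means of 6.92 to 7.52 in the livers and 6.82 to 8.32 in the tumours. Of the markers of resident liver cells, 4 of 6 sinusoid endothelium genes were lower and 1 higher (means of 8.73 to 9.56 in the livers and 7.20 to 8.55 in the tumours), and 6 of 9 quiescent stellate cell genes were lower and 2 higher (7.21 to 8.03 and 6.37 to 7.37). Of 7 macrophage genes 3 were higher and 2 lower. Transcripts of pancreatic acinar cells stood out in 3 arrays, the tumours of rat 5 (mean of 9 genes 9.09) and rat 9 (8.87) and the metastasis of rat 8 (11.21), against 5.17 to 6.75 in the other tumours and metastases. The tumour and metastasis of rat 7 stood apart in many of the collagen genes, and the counts without them are given with the day 25 results. In whole tissue, fewer cells of a type and less RNA per cell cannot be told apart, and the part of these cells in the collagen differences was not tested.

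In tumour against liver, averaged over the 3 days, 29 of the 52 genes were higher in tumour, 10 were lower and 13 were not called. Over all 14218 genes, 36.8% were higher and 37.8% lower, so the lower share of these genes (19.2%) was below the background and the higher share (55.8%) above it. The gap was wider among large changes: 25 of the 52 genes were higher by 2-fold or more, against 12.7% of all genes, while Col18a1 alone was lower by 2-fold or more, against 8.34%. The median difference of the 52 genes was 0.70, and that of all genes -0.03. Levels in the 9 tumours did not overlap those in the 9 livers for 27 of the 52 genes (32.2% of all genes). Within rats, 26 of the 29 higher genes were higher in the tumour of all 9 rats. The same arrays picked these 29 genes, so that count is a description and no separate support. The matching share of all genes is not given here.

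**Figure D1:**
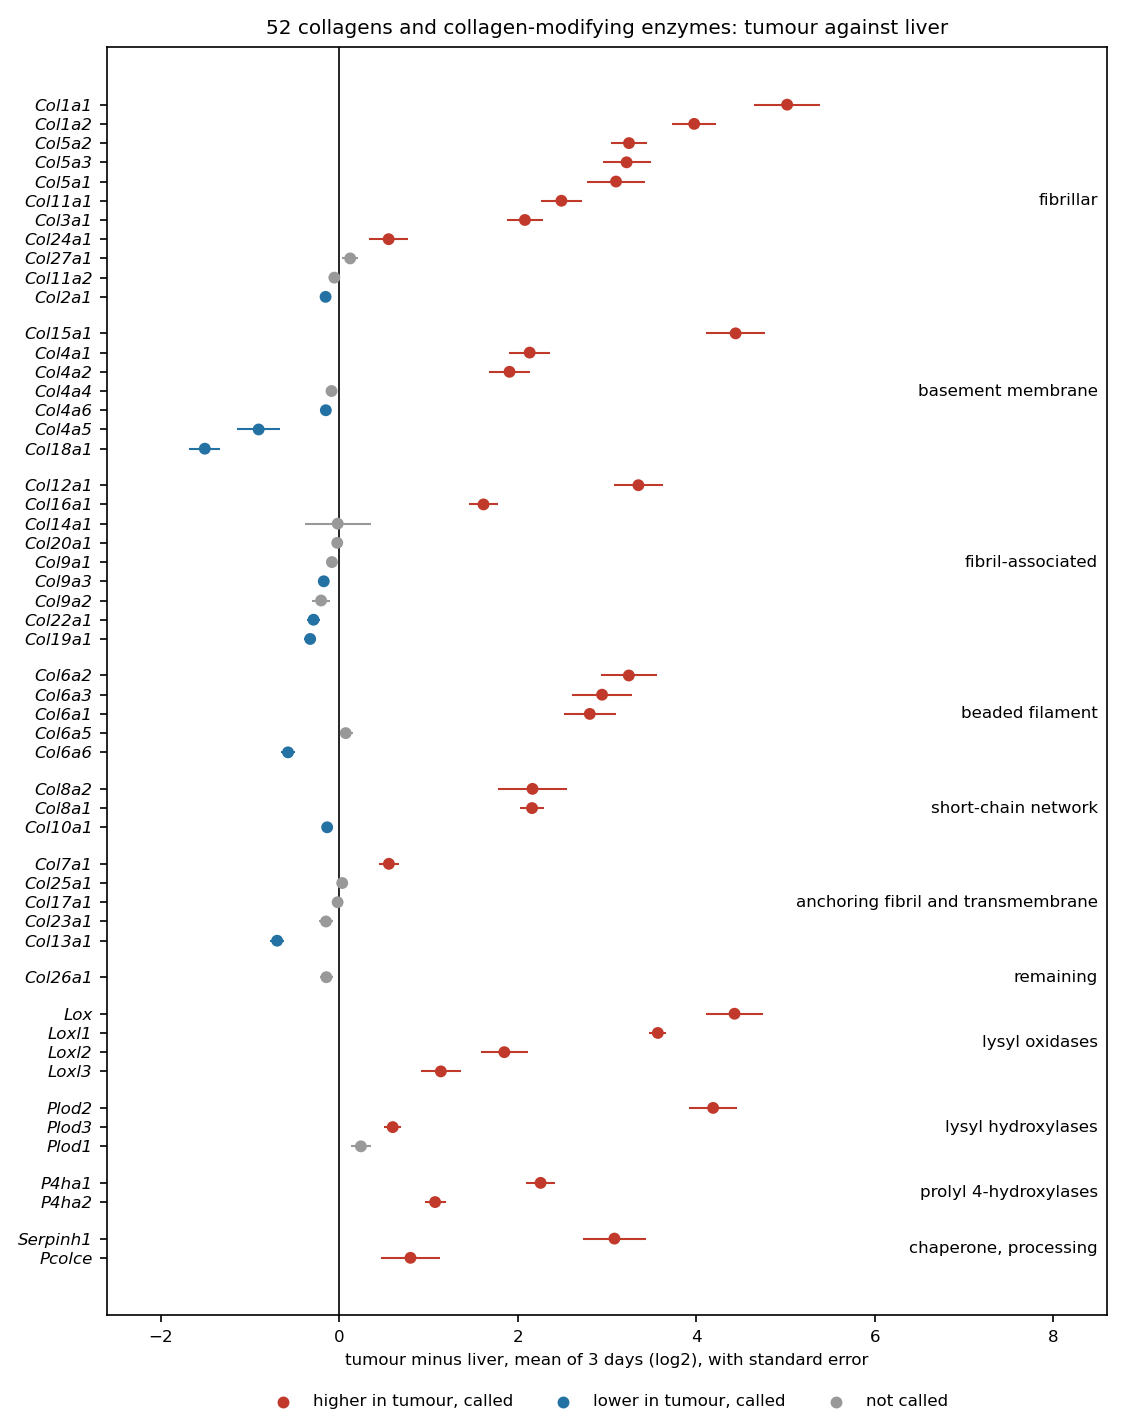
Difference between tumour and liver, as the mean of the 3 days, for each of the 52 genes; the x axis is the log2 difference, points are estimates, bars their standard errors, and genes are grouped by class. Red marks the 29 genes called higher in tumour, blue the 10 called lower and grey the 13 not called; Col1a1 (5.02) and Col18a1 (-1.51) are the extremes.

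The fibrillar collagens held the largest change. Col1a1, the alpha 1 chain of type I collagen, had levels of 13.81, 13.90 and 13.61 in the tumours of day 10, 14.03, 13.52 and 14.00 in those of day 15 and 12.28, 13.62 and 13.84 in those of day 25. Its levels in the livers were 7.24, 9.04 and 7.05 at day 10, 8.56, 8.95 and 8.89 at day 15 and 10.04, 9.85 and 7.85 at day 25. The lowest tumour thus lay more than 2 log2 units above the highest liver, and the spread between livers was wider than between tumours. Col1a1 was higher in tumour by 5.02 (SE 0.37), 32.4-fold, with an adjusted p of 4.1e-09 by limma.

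Its partner chain Col1a2 was higher by 3.98 (SE 0.24), with tumours of 12.71 to 14.05 (median 13.81) and livers of 8.55 to 10.86 (median 9.61). Col3a1, the chain of type III collagen, which forms fine reticular fibres, already stood at 11.14 to 12.65 in the livers (median 11.68) and at 12.92 to 14.16 in the tumours (median 13.89). The groups did not overlap for either gene, and Col3a1 was higher by 2.08 (SE 0.20). Levels near 14 are close to the highest value in the table, 14.62, and saturation of these signals was not tested.

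The 3 chains of type V collagen, which helps to set the diameter of type I fibrils, were all higher: Col5a2 by 3.25 (SE 0.20), Col5a3 by 3.22 (SE 0.27) and Col5a1 by 3.10 (SE 0.32). Col5a3 was at 5.49 to 6.16 in the livers, around the array median, and at 7.07 to 10.06 in the tumours. Col11a1, a fibrillar chain best known from cartilage and also from tumour stroma, was at 4.97 to 5.83 in the livers and 7.06 to 8.71 in the tumours, a difference of 2.49 (SE 0.23). Col24a1 differed by 0.55 (SE 0.22, adjusted p = 0.032), but its tumours (4.63 to 6.81) overlapped the livers (4.47 to 4.84). The high value of Col24a1 came from the tumour of rat 4; without that tumour the difference was 0.39 with an adjusted p of 0.067. In all, 8 of the 11 fibrillar genes were higher in tumour. Col2a1, the cartilage collagen, was lower by only 0.15 (adjusted p = 0.023), and Col11a2 (-0.06) and Col27a1 (0.12) were not called. A list of 7 cartilage and bone genes was at 4.86 to 5.32 in every array.

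The promoter of Col1a2 is shown because its gene is one of the largest changes and its window holds both general promoter motifs that were searched. Promoter windows here are 300 bases long, from 250 before to 50 after the annotated start, from RefSeq's table for the rat assembly GRCr8, which holds 41 of the 52 genes. CCAAT, on either strand, is found in 37.5% of all 33469 windows and in 9 of the 41. TATAAA, on either strand, is found in 14.2% of all windows and in 4 of the 41. In the window of Col1a2, chr4:33518307-33518606 on the plus strand, capitals mark both motifs, CCAAT being read there on the other strand.
Col1a2: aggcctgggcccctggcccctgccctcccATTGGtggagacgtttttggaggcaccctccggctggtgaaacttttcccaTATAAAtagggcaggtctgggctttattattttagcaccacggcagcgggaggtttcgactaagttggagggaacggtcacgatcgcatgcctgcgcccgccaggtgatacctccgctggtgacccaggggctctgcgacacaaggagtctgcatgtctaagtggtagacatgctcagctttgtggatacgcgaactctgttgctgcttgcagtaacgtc
A match is only a description of the letters, and no test of frequency was made.

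The basement membrane collagens were split. Col15a1, a border collagen that also occurs around tumour vessels, was at 9.66 to 12.06 in the tumours (median 11.21) and 6.27 to 7.52 in the livers (median 6.69). It was higher by 4.44 (SE 0.33), 21.7-fold, and by 2.97 to 5.57 in each of the 9 rats. Col4a1 and Col4a2, the chains of the general form of type IV collagen, were higher by 2.13 (SE 0.23) and 1.91 (SE 0.22). In the tumour of rat 7, though, Col4a2 exceeded the liver by only 0.0033, and Col4a1 by 0.29. In the other rats Col4a1 exceeded it by 1.33 to 2.94.

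Col18a1, whose product carries the endostatin fragment and is made by hepatocytes, went the other way. Its levels in the livers were 10.56, 10.52 and 10.56 at day 10, 10.76, 10.57 and 10.71 at day 15 and 11.38, 11.06 and 10.78 at day 25. In the tumours they were 9.58, 9.26 and 9.27, then 9.42, 9.26 and 9.40, and at day 25 8.14, 9.42 and 9.60. Every tumour lay below every liver, and the difference was -1.51 (SE 0.17, adjusted p = 7.6e-07). Col4a5, another type IV chain, was lower by 0.90 (SE 0.24), with tumours of 5.00 to 7.01 and livers of 7.11 to 7.83. Col4a6 was lower by 0.15, at levels of 5.00 to 5.42 in both tissues, and Col4a4 was not called (-0.09). Of the genes above the lowest array median in at least 1 group, Col18a1 and Col4a5 were the only ones lower in tumour. Of the 15 hepatocyte genes, 14 were lower there too. In metastasis against tumour at day 25, Col18a1 differed by -0.275 (not called) and the hepatocyte genes by a median of -3.56. The part of hepatocytes in the lower levels of Col18a1 and Col4a5 was not tested.

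**Figure D2:**
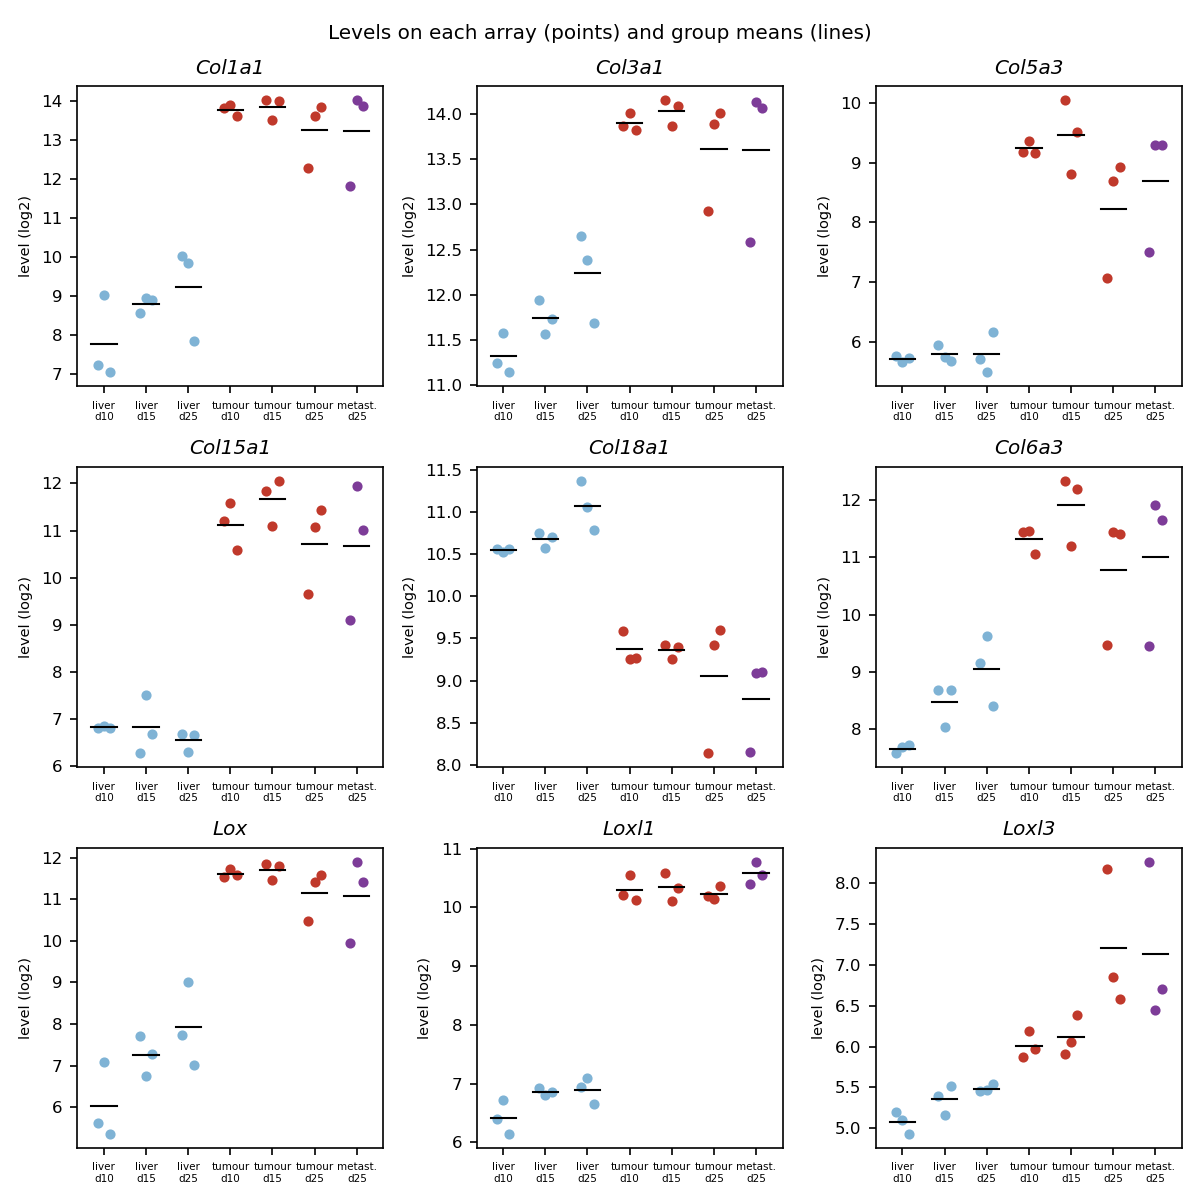
Levels (log2) of 9 genes on every array, by group on the x axis; each point is 1 array and each line the mean of 3 rats, with blue for liver, red for tumour and purple for metastasis. Col1a1, Col15a1, Lox and Loxl1 separate tumour from liver on every array, Col18a1 is lower in every tumour, and Loxl3 is highest in the tumour (8.17) and metastasis (8.26) of rat 7.

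Type VI collagen makes beaded microfilaments around cells. Its 3 classical chains were higher in tumour, Col6a2 by 3.24 (SE 0.31), Col6a3 by 2.94 (SE 0.33) and Col6a1 by 2.81 (SE 0.29). Col6a3 had tumours of 9.48 to 12.34 (median 11.44) and livers of 7.58 to 9.63 (median 8.40), so the lowest tumour, that of rat 7, fell within the range of the livers. Col6a6 was lower by 0.57 at levels of 3.96 to 5.30, and Col6a5 was not called (0.07). Among the fibril-associated collagens, which coat fibrils, Col12a1 was higher by 3.35 (SE 0.27) and Col16a1 by 1.62 (SE 0.16). Col14a1, of the same class, was near-equal on average (-0.02, SE 0.37), yet its tumours ran from 6.75 to 9.83 around livers of 8.43 to 9.53. That difference was -2.78 in rat 7 and positive in 7 of the other 8 rats. Col22a1, Col19a1 and Col9a3 were lower by 0.29, 0.33 and 0.17, and Col9a1, Col9a2 and Col20a1 were not called (-0.08, -0.20 and -0.02).

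The short-chain collagens Col8a1 and Col8a2, which build lattices in vessel walls, were both higher by 2.16 (SE 0.14 and 0.38). Col10a1, the collagen of growth plate cartilage, was lower by 0.14. Of the anchoring fibril and transmembrane collagens, Col7a1 was higher by 0.56 (SE 0.11) and Col13a1 lower by 0.70 (SE 0.08), while Col17a1 (-0.02), Col23a1 (-0.15) and Col25a1 (0.03) were not called. Col26a1 was not called either (-0.14). Many of these genes had low levels: 17 of the 52 genes stayed below the lowest array median, 5.98, in the mean of every group. They held 8 of the 10 lower genes and 2 of the 29 higher ones, and none changed by more than 0.70. No detection calls were used, so signal and background could not be separated there.

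All 4 lysyl oxidases measured were higher in tumour. Lox itself was at 11.53, 11.73 and 11.58 in the tumours of day 10, 11.84, 11.46 and 11.80 in those of day 15 and 10.47, 11.41 and 11.59 in those of day 25. In the livers it was at 5.62, 7.10 and 5.35, then 7.70, 6.76 and 7.28, and at day 25 7.74, 9.02 and 7.00. The groups were apart on every array, and the difference was 4.43 (SE 0.31), 21.5-fold. Loxl1, known for its role in elastic fibres, had the least spread: tumours of 10.11 to 10.59 and livers of 6.14 to 7.09, a difference of 3.57 with an SE of 0.09 and an adjusted p of 2.4e-14, between 3.06 and 3.99 in each rat. Loxl2, which cross-links type IV collagen, was higher by 1.85 (SE 0.26). Loxl2 was lower in tumour than in liver by 0.38 in rat 7 and higher in the other 8 rats. Loxl3 was higher by 1.14 (SE 0.22).

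The lysyl hydroxylases were unequal. Plod2, which hydroxylates the lysines of the telopeptides at the chain ends and so sets the type of cross-link, was higher by 4.19 (SE 0.27), 18.2-fold. Plod3, which also adds sugars to hydroxylysine, was higher by 0.60 (SE 0.10). Plod1, which acts on the helix, was 8.68 to 9.67 in the tumours and 8.68 to 9.24 in the livers; its difference of 0.24 (SE 0.11) was not called (adjusted p = 0.057) but was called with rat as a block (adjusted p = 0.03). The catalytic prolyl 4-hydroxylase chains P4ha1 and P4ha2 were higher by 2.26 (SE 0.16) and 1.07 (SE 0.12), without overlap. Serpinh1 had livers of 8.41 to 9.91 and tumours of 9.94 to 12.39 and was higher by 3.08 (SE 0.35). Pcolce was higher by 0.80 (SE 0.33, adjusted p = 0.038), a mean over days that differed, and 11 of the 29 alternatives tried left it uncalled.

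Plod2, P4ha1 and P4ha2 are shown with their promoters because all 3 were higher in tumour and their windows hold ACGTG, the core of the element that hypoxia-inducible factors bind. ACGTG, read on either strand, occurs in 19.3% of all windows and in 6 of the 41 windows of these genes, the others being Col24a1, Col26a1 and Col4a5. Of those, Col24a1 was higher too but is not shown, Col26a1 was not called and Col4a5 was lower. The motif thus did not go with 1 direction. The 3 windows shown were picked by motif and direction together, and a link between motif and level was not tested. The windows are chr8:101964068-101964367, chr20:27844796-27845095 and chr10:38743644-38743943, all on the plus strand, with the motif in capitals.
Plod2: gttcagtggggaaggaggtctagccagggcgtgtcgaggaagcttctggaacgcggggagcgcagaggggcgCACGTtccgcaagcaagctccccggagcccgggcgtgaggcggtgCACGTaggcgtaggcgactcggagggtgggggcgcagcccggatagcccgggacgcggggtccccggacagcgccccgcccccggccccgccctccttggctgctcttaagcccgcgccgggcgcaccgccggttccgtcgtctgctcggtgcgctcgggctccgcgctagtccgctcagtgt
P4ha1: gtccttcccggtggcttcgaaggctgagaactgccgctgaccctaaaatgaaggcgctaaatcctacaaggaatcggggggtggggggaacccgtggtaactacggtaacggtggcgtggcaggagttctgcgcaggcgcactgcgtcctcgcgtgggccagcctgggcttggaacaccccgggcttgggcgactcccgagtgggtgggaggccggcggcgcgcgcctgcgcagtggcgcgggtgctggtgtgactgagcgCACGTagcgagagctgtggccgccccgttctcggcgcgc
P4ha2: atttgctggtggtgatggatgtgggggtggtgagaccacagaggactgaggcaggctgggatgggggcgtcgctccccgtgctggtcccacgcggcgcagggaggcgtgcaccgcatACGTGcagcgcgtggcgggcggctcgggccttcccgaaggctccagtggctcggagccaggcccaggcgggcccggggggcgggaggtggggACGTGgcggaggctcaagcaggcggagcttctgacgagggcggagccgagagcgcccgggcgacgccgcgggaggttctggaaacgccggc
Serpinh1 encodes a heat shock protein, and its window, chr1:163062927-163063226 on the minus strand, holds a heat shock element, that is GAA, TTC and GAA in a row with any 2 bases between them, here on the other strand and in capitals. That motif is in 0.798% of all windows and, among the 41, in those of Serpinh1 and Plod2.
Serpinh1: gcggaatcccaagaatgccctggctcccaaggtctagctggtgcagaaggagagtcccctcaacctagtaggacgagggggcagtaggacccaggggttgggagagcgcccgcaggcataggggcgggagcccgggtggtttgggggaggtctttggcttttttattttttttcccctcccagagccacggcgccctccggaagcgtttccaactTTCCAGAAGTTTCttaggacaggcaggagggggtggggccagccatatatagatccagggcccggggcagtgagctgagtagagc
Binding was not measured, so the letters say nothing on which factor acts at these promoters.

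The single days gave these counts. At day 10, 27 of the 52 genes were higher and 8 lower (30.4% and 28.0% of all genes). At day 15, 27 were higher and 4 lower (28.2% and 23.6%), and at day 25, 25 were higher and 5 lower (27.7% and 22.4%). The differences of Col1a1 were 6.00, 5.05 and 4.00 at the 3 days (SE 0.64 each), those of Lox 5.59, 4.45 and 3.24 (SE 0.55) and those of Plod2 5.54, 4.59 and 2.43 (SE 0.46). Those of Col1a2 were 4.83, 4.05 and 3.05 (SE 0.42), and those of Col3a1 2.58, 2.29 and 1.36 (SE 0.35). These 5 genes had their smallest difference at day 25, and the test of that change is given with the comparison between days. Col15a1 had differences of 4.30, 4.84 and 4.18 (SE 0.57) and Loxl1 of 3.88, 3.49 and 3.34 (SE 0.16), so these were nearer to each other across days. Serpinh1 differed by 3.76, 3.41 and 2.08 (SE 0.60). Its dimmer probe set, by contrast, differed by 0.26 at day 10 and 0.14 at day 25, both uncalled, and by 0.30 over all days, which was called.

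The remaining large differences were in fibrillar, type VI and fibril-associated chains. Col5a2 was higher by 3.95, 3.51 and 2.28 at days 10, 15 and 25, Col12a1 by 3.91, 3.85 and 2.30, Col6a2 by 3.49, 3.85 and 2.39, and Col5a3 by 3.53, 3.68 and 2.45. Col6a3 was higher by 3.66 at day 10, Col5a1 by 3.53 at day 15 and Col11a1 by 2.59 at day 25. Col4a1 was higher by 2.72, 2.52 and 1.15 and Col4a2 by 2.27, 2.42 and 1.03. The day 25 call of both type IV chains was lost without the tumour of rat 8 or 9 or the liver of rat 9 (adjusted p = 0.0784 to 0.147), and that of Col4a2 also without the liver of rat 8. Loxl2 was higher by 2.43 and 2.29 at days 10 and 15. It was not called at day 25 (0.83, SE 0.45, adjusted p = 0.14), though it was with rat as a block (adjusted p = 0.039). Col24a1 was called at day 15 (1.24) and not at day 10 (0.22) or day 25 (0.21). Without the tumour of rat 4 its day 15 difference was 0.75 (adjusted p = 0.0878).

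Of the lower genes, Col18a1 differed by -1.18, -1.32 and -2.02 at the 3 days, Col13a1 by -0.54, -0.83 and -0.72 and Col6a6 by -0.46, -0.45 and -0.82. At day 10 Col26a1 (-0.59), Col22a1 (-0.58), Col19a1 (-0.47), Col23a1 (-0.34) and Col4a6 (-0.19) were lower too, the last 2 uncalled with rat as a block (adjusted p = 0.0672 and 0.0782). Col9a3 was lower at day 15 (-0.24) and day 25 (-0.21, uncalled with rat as a block, adjusted p = 0.0548). Col4a5 was called at day 25 (-1.57) and not at day 10 (-0.36) or day 15 (-0.78, called with rat as a block, adjusted p = 0.0446). Among the brightest uncalled genes, Plod1 differed by 0.43, 0.38 and -0.08 (called at day 10 with rat as a block, adjusted p = 0.0341) and Col14a1 by 0.42, 0.66 and -1.13. Plod3 was called at days 10 and 15 and not at day 25 (0.40, called with rat as a block, adjusted p = 0.0264). Col9a2 (-0.35 at day 10 and -0.12 at day 15) and Col20a1 (-0.01 at day 10) were not called.

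Tumours of day 25 did not differ detectably from those of day 10 in any of the 52 genes by limma, against 0.0141% of all genes higher and 0.0422% lower. The differences ran from -1.01 (Col5a3, SE 0.47) to 1.19 (Loxl3, SE 0.39, adjusted p = 0.18), and 4 of the 52 genes had an unadjusted p under 0.05, against 2444 of all 14218. With arrays weighted by their quality, 6 genes were higher and 1 lower at day 25, and without the 3 arrays with acinar transcripts 2 were higher. The shares of all genes under these settings are not given here. Of the 8 core genes, for which values are given in every comparison, Col1a1 differed by -0.53, Col1a2 by -0.36, Col3a1 by -0.29, Lox by -0.46, Loxl2 by -0.79, Serpinh1 by -0.83, Col4a1 by 0.08 and Col4a2 by 0.13; these and Col5a2 (-0.38) were not called.

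Among the day 25 tumours, that of rat 7 stood apart. Of the 29 genes higher in tumour, the tumour of rat 7 was the lowest of the 9 tumours in 22, against 23.0% of all genes. Across these 29 genes its level lay below the median of the other 8 tumours by a median of 1.11, whereas over all genes the median shift was 0.03. Its metastasis was the lowest of the 3 in 27 of the 29 genes, against 36.8% of all genes, and lay below the mean of the other 2 by a median of 1.51. Serpinh1 shows the pattern: the day 25 tumours of rats 7, 8 and 9 were at 9.94, 11.84 and 12.29 and the metastases at 9.80, 12.42 and 12.18. Rat 7 was low at both sites, and its tumour and metastasis were alike over all genes (r = 0.992 across genes, which are not replicates, against 0.935 in rats 8 and 9).

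Not every gene followed. Loxl1 in the tumour of rat 7 (10.20) lay between those of rats 8 and 9 (10.15 and 10.36), and Col8a1 (8.34) between 7.68 and 8.36. Col11a1 was at 8.14 against 7.06 and 8.25. Loxl3 was the opposite case, at 8.17 in the tumour and 8.26 in the metastasis of rat 7, against 5.87 to 6.85 in the other tumours and metastases. The 14 myofibroblast genes had their lowest tumour and metastasis means in rat 7 too (8.57 and 8.32, against 9.15 to 9.89), as did 8 blood vessel genes (6.82 and 6.62, against 7.80 to 8.32). Hepatocyte genes were lowest in that tumour as well (7.01), as were macrophage, sinusoid endothelium and quiescent stellate cell genes. Bile duct epithelium genes (10.46) and muscle genes (7.32), by contrast, had their highest tumour mean there. Erbb2 was highest in that tumour too (10.73). The part of these cells in the low collagen levels was not tested. Without the tumour of rat 7, 30 of the 52 genes were higher in tumour over all days and 27 at day 25. No share of all genes is given here for the fit without it.

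**Figure D3:**
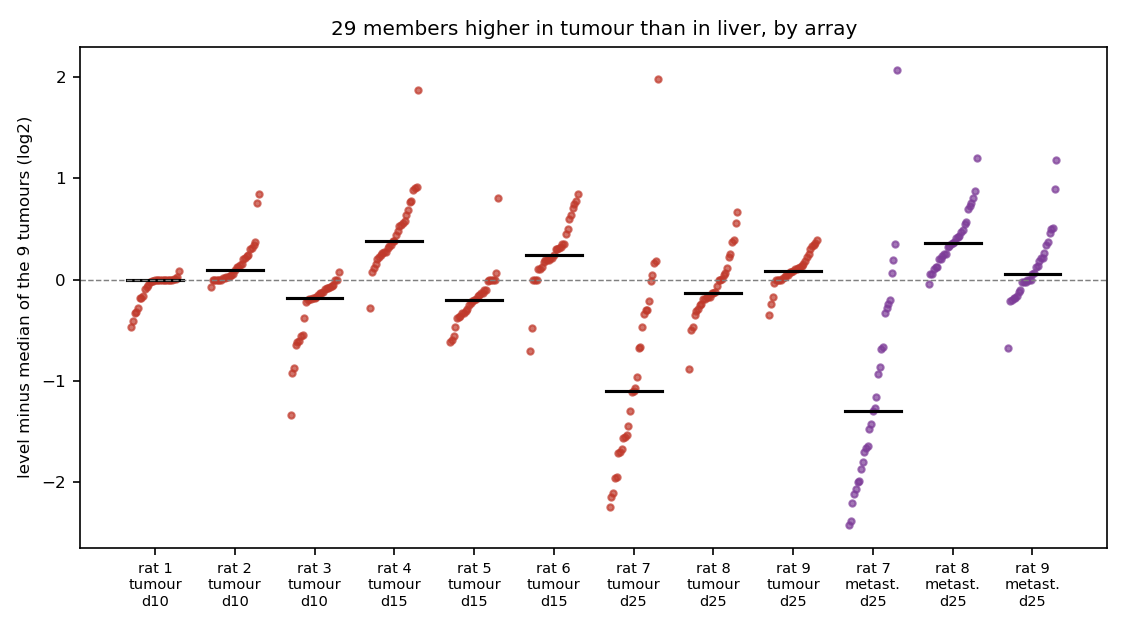
Levels of the 29 genes higher in tumour, as the log2 difference from the median of the 9 tumours, for each tumour (red) and metastasis (purple) array; each point is 1 gene, sorted within the array, and the black line is the median. The medians of rat 7 are -1.10 in the tumour and -1.30 in the metastasis, and those of the other arrays lie between -0.20 and 0.38; the isolated top point in rat 7 is Loxl3.

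Metastases were set against the day 25 tumours of the same 3 rats, a question of whether collagen genes differ between the liver mass and its peritoneal spread. None of the 52 genes was called by limma in either direction, against 0.00703% of all genes higher and 0.331% lower. Differences ran from -0.37 (Col23a1, SE 0.14) to 0.82 (Col24a1, SE 0.38), and 2 genes had an unadjusted p under 0.05, against 863 of all 14218. Only Col23a1 and Loxl1 (0.34, SE 0.16) had metastases that did not overlap the tumours (10.9% of all genes). With arrays weighted by their quality, 9 genes were higher and 9 lower, and the share of all genes under those weights is not given here. Leaving out any 1 array kept both counts at 0. The core genes differed by -0.01 (Col1a1), -0.04 (Col1a2), -0.01 (Col3a1), -0.21 (Col4a1), -0.28 (Col4a2), -0.07 (Lox), 0.04 (Loxl2) and 0.11 (Serpinh1), and Col5a2 by 0.22.

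Those near-zero means hide rats that went apart. For Col1a1, metastasis minus tumour was -0.47 in rat 7, 0.40 in rat 8 and 0.04 in rat 9. For Col15a1 it was -0.57, 0.86 and -0.43, and for Col11a1 -0.13, 1.64 and 0.59. For these 3 genes the metastasis was above the tumour in rat 8 and below it in rat 7. The mean of the myofibroblast genes went the same way, from 9.15 in the tumour to 9.89 in the metastasis of rat 8 and from 8.57 to 8.32 in rat 7. The metastasis of rat 8 also had the highest acinar mean and the highest mean of 9 muscle genes (7.70). Their part in the collagen differences was not tested. Col5a3 (0.44, 0.59 and 0.37), Loxl1 (0.21, 0.63 and 0.19) and Col14a1 (0.31, 1.00 and 0.76) were higher in the metastasis of all 3 rats, and Col4a2 (-0.19, -0.19 and -0.47) was lower in all 3, none of them called. These are examples: Col6a1 and Col24a1 were also higher in all 3, and Col23a1, Col13a1 and Col4a6 also lower. The share of all genes with 1 sign in all 3 rats is not given here.

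Against the day 25 livers, 24 of the 52 genes were higher in metastasis and 8 lower (33.4% and 23.6% of all genes), and 22 were higher and 2 lower by 2-fold or more (15.0% and 8.71%). Col15a1 was higher by 4.13 (SE 0.57), Col1a1 by 3.99 (SE 0.64), Loxl1 by 3.68 (SE 0.16) and Col11a1 by 3.29 (SE 0.40). Lox was higher by 3.17 (SE 0.55), Col1a2 by 3.00 (SE 0.42), Col5a3 by 2.92, Col6a2 by 2.75, Col6a1 by 2.68 and Col5a2 by 2.50. Serpinh1 was higher by 2.19 (SE 0.60; 0.24 and uncalled with its dimmer probe set) and Col3a1 by 1.36 (SE 0.35). Col18a1 was lower by 2.30 (SE 0.30) and Col4a5 by 1.70 (SE 0.42). The other lower genes were Col13a1 (-0.87), Col6a6 (-0.82), Col23a1 (-0.40), Col19a1 (-0.35), Col9a3 (-0.25) and Col4a6 (-0.22). Col4a1 (0.95, adjusted p = 0.054), Col4a2 (0.74, adjusted p = 0.11) and Loxl2 (0.87, adjusted p = 0.11) were not called. With rat as a block all 3 were called (adjusted p = 0.012, 0.043 and 0.029). Pcolce (-1.17, adjusted p = 0.092) was called with rat as a block too (adjusted p = 0.0196), and Plod1 (-0.09) and Plod3 (0.27) were not called. Without the metastasis of rat 7, 29 genes were higher, and the share of all genes in that fit is not given here. Metastasis and tumour were compared with the same livers, so these values and those of the day 25 tumours are not independent.

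In the livers, 9 of the 52 genes were higher at day 25 than at day 10 and 1 was lower, against 5.33% and 3.77% of all genes. All 9 were higher by 2-fold or more (1.68% of all genes). In descending order they were Pcolce, Plod2, Lox, Col4a1, Col12a1, Col1a2, Col4a2, Col5a2 and P4ha1, a set that spans fibril chains, basement membrane chains and 4 of the 11 modifying genes. Livers of the 2 days did not overlap in 22 of the 52 genes (30.3% of all genes). These counts rest on single arrays. The 9 became 3 without the day 10 liver of rat 1 or of rat 3, 2 without the day 25 liver of rat 7, 4 without that of rat 8 and 15 with arrays weighted by their quality. No share of all genes is given here for these settings.

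Pcolce changed most. Its levels in the livers were 8.97, 8.20 and 7.94 at day 10, 9.56, 8.35 and 9.84 at day 15 and 10.81, 11.22 and 11.27 at day 25. Every liver of day 25 was above every earlier one, and the difference from day 10 was 2.73 (SE 0.57, adjusted p = 0.0085), 6.64-fold. Plod2 was at 5.62, 5.56 and 5.34 in the day 10 livers, 7.00, 6.26 and 6.43 at day 15 and 7.83, 8.86 and 7.54 at day 25. Each day lay above the one before without overlap, and the difference between days 25 and 10 was 2.57 (SE 0.46, adjusted p = 0.0036), 5.93-fold. Both kept their call when any 1 liver array was left out.

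Lox was higher by 1.90 (SE 0.55), with livers of 5.35 to 7.10 at day 10 overlapping those of 7.00 to 9.02 at day 25. P4ha1 was at 7.03, 7.44 and 7.52 at day 10 and at 9.09, 8.08 and 8.04 at day 25, a difference of 1.07 (SE 0.28). Col12a1 was higher by 1.58 (SE 0.47), Col1a2 by 1.42 (SE 0.42) and Col5a2 by 1.28 (SE 0.35), with adjusted p of 0.032 to 0.048 by limma. Leaving out the liver of rat 1 (adjusted p = 0.0843 to 0.127) or of rat 7 (0.0807 to 0.153) ended the call of all 5 of these genes, and leaving out that of rat 3 or of rat 8 ended all but that of P4ha1. The call of Col12a1 was also lost with its other probe sets (0.11 for the one with the lowest mean). The second probe set of Col1a2 gave 1.19 and was not called. Of 17 alternatives for each gene, 9 lost the call of Col12a1, 8 that of Col1a2 and 6 that of Col5a2. For Lox 5 did, and for P4ha1 4. Col1a1 (1.47, SE 0.64), Col6a3 (1.40, SE 0.58), Col3a1 (0.92, SE 0.35), Col5a1 (0.90, SE 0.56), Serpinh1 (0.85, SE 0.60) and Loxl2 (0.80, SE 0.45) had positive differences that were not called. Col22a1 was lower by 0.49 at levels of 5.14 to 6.02, under or near the array medians.

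**Figure D4:**
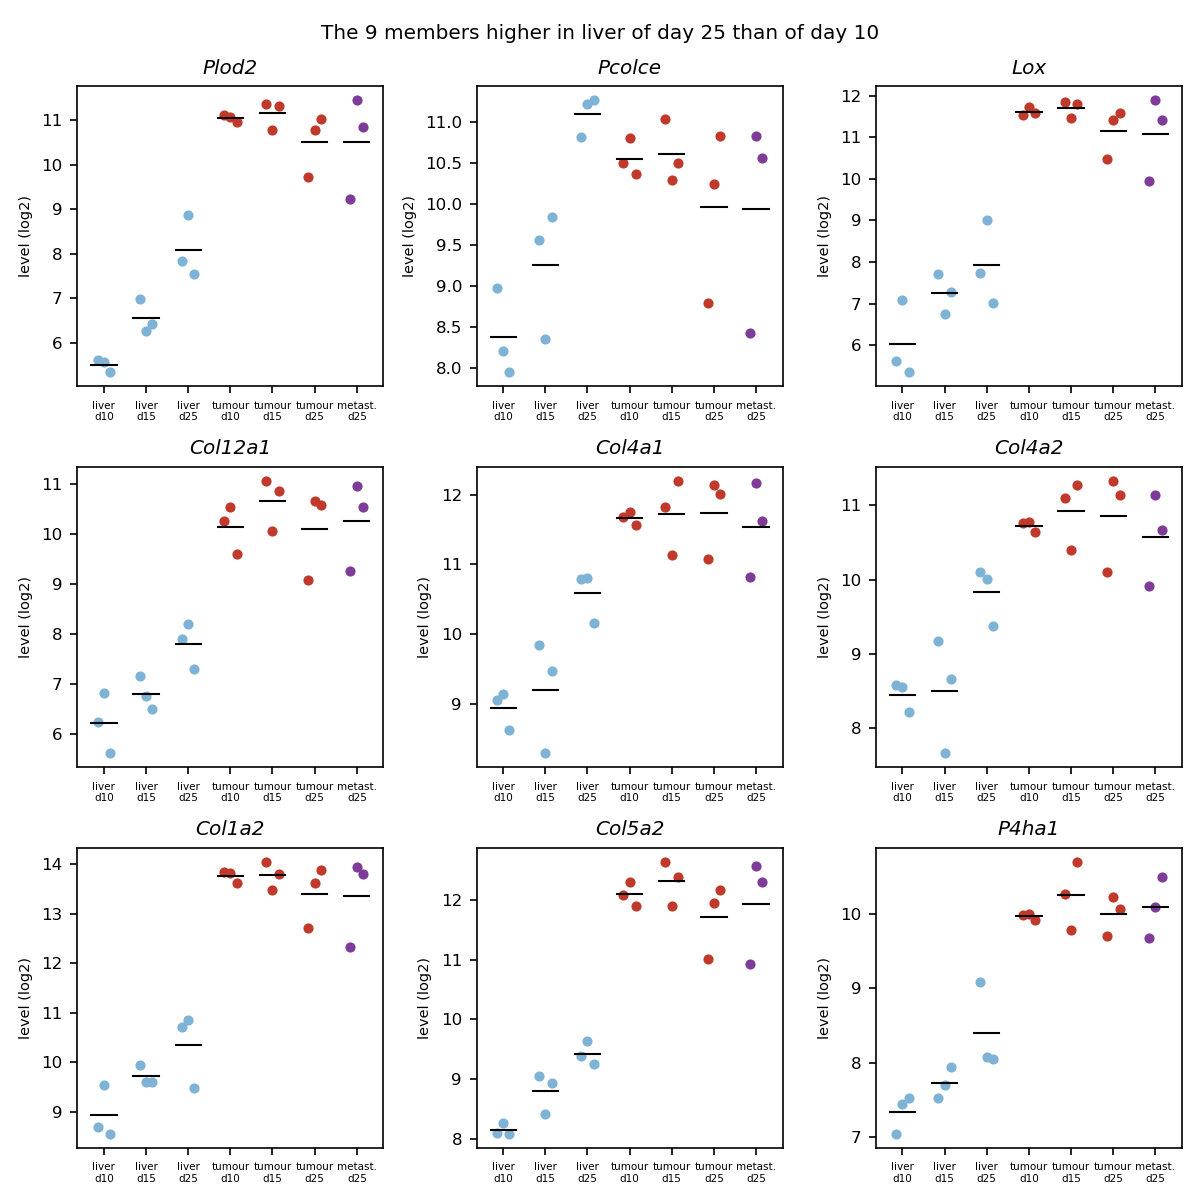
Levels (log2) of the 9 genes called higher in the livers of day 25 than of day 10, on every array, by group on the x axis; points are arrays, lines are means of 3 rats, with blue for liver, red for tumour and purple for metastasis. In all 9 the mean of the day 25 livers is above that of the day 10 livers, and Pcolce reaches 11.27 in liver, above every tumour (highest 11.03).

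Col4a1 and Col4a2 moved together in the livers. Col4a1 was at 9.05, 9.15 and 8.63 at day 10, 9.84, 8.29 and 9.47 at day 15 and 10.79, 10.81 and 10.16 at day 25. Col4a2 was at 8.58, 8.56 and 8.22, then 9.17, 7.67 and 8.66, and at day 25 10.10, 10.01 and 9.38. In both genes all livers of day 25 were above all those of days 10 and 15, and rat 5 was the lowest of day 15. The differences from day 10 were 1.65 (SE 0.40, adjusted p = 0.018) and 1.38 (SE 0.39, adjusted p = 0.036). Leaving out the liver of rat 3, 7 or 8 ended the call of Col4a1 (adjusted p = 0.0591 to 0.0779), and leaving out that of rat 1, 2, 3, 7 or 8 ended that of Col4a2 (0.0708 to 0.123). Rat 5 was also the lowest of day 15 for Pcolce, Plod2, Lox and Col5a2, and not for Col12a1, Col1a2 or P4ha1. Col4a1 and Col4a2 lie head to head and share a promoter, and the RefSeq table puts their starts 77 bases apart. The part of that promoter in their liver levels was not tested. The CCAAT match marked below begins 24 bases past the annotated start of Col4a1. The 176 bases that their windows share, chr16:84885471-84885646, are shown on the plus strand with CCAAT, read on the other strand, in capitals.
Col4a1 and Col4a2: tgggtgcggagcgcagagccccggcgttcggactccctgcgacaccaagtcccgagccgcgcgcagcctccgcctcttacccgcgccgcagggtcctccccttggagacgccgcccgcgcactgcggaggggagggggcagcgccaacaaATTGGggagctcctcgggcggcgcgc

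Markers of several cell types moved in the livers over the same days. Of the 14 myofibroblast genes, Dcn alone was called (2.34, SE 0.40), with Acta2 at 0.41 (SE 0.38) and Postn at 0.14 (SE 0.60), both uncalled; the list mean was 5.90 to 6.40 at day 10 and 6.23 to 6.64 at day 25. Of 9 stellate cell genes Rgs5, also a pericyte marker, was higher (2.90) and Ecm1 lower (-0.84); the list mean was 7.21 to 7.42 at day 10 and 7.66 to 8.03 at day 25. Of 7 macrophage genes Gpnmb, Cd163 and Cd68 were higher (1.25, 1.20 and 0.77). The macrophage mean was 8.88 to 9.11 at day 10 and 9.41 to 10.02 at day 25, without overlap. Of 9 bile duct genes Cd24 was higher (1.77). The bile duct mean was 5.54 to 5.63 at day 10, 6.20 to 6.44 at day 15 and 5.64 to 7.12 at day 25, highest in rat 7. Days 10 and 25 did not overlap there, by a narrow margin. Of 15 hepatocyte genes Cyp2c11 and Ugt2b1 were lower (-5.54 and -2.35). The hepatocyte mean was 12.32 to 12.67 at day 10 and 11.58 to 11.81 at day 25, without overlap. Of 6 sinusoid endothelium genes Fcgr2b was higher (0.89), and the list mean was 8.73 to 9.09 at day 10 and 9.22 to 9.56 at day 25, again without overlap. Of 8 blood vessel genes Vwf was higher (1.04), with list means of 6.92 to 7.26 and 7.19 to 7.52. Of 9 acinar genes Cela1 was lower (-1.66). Their part in the collagen changes was not tested.

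The gap between tumour and liver was also compared between days. The test of its change from day 10 to day 25 called Plod2 alone among the 52 genes (-3.10, SE 0.65, adjusted p = 0.031), against 1.09% of all genes lower and 0.373% higher. Tumour minus liver for Plod2 was 5.49, 5.51 and 5.61 in rats 1 to 3, 4.37, 4.51 and 4.90 in rats 4 to 6 and 1.90, 1.92 and 3.49 in rats 7 to 9. The 3 days did not overlap. Its call was lost without any 1 of the day 10 tumours, the day 10 livers, the day 25 tumours of rats 7 and 8 or the day 25 liver of rat 8, with differences of -2.71 to -3.24. The 8 core genes had negative changes that were not called: Lox -2.36 (SE 0.77, adjusted p = 0.13), Col1a1 -2.00 (SE 0.91), Col1a2 -1.78 (SE 0.60), Serpinh1 -1.68 (SE 0.85), Loxl2 -1.60 (SE 0.64), Col4a1 -1.57 (SE 0.57), Col4a2 -1.24 (SE 0.55) and Col3a1 -1.22 (SE 0.50). Col5a2 was not called either (-1.66, SE 0.50). With rat as a block 4 genes were called lower: Plod2, Pcolce, Col5a2 and Serpinh1. With arrays weighted by their quality 10 were. The shares of all genes under these 2 settings are not given here, so these counts have no background.

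For Pcolce the gap changed sign. Tumour minus liver was 1.53, 2.60 and 2.41 in the rats of day 10, 1.47, 1.94 and 0.65 at day 15 and -2.02, -0.98 and -0.44 at day 25. The change of -3.33 (SE 0.81) missed the threshold (adjusted p = 0.052) and passed it with rat as a block (adjusted p = 0.0165). At day 10 the tumours were higher by 2.18 (SE 0.57, adjusted p = 0.0040). At day 15 (1.35) and day 25 (-1.14) they were not called (adjusted p = 0.058 and 0.11), but were with rat as a block (adjusted p = 0.011 and 0.024). The Pcolce levels of the tumours themselves, 10.36 to 10.80 at day 10 and 8.79 to 10.83 at day 25, were not called different (-0.60, SE 0.57).

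**Figure D5:**
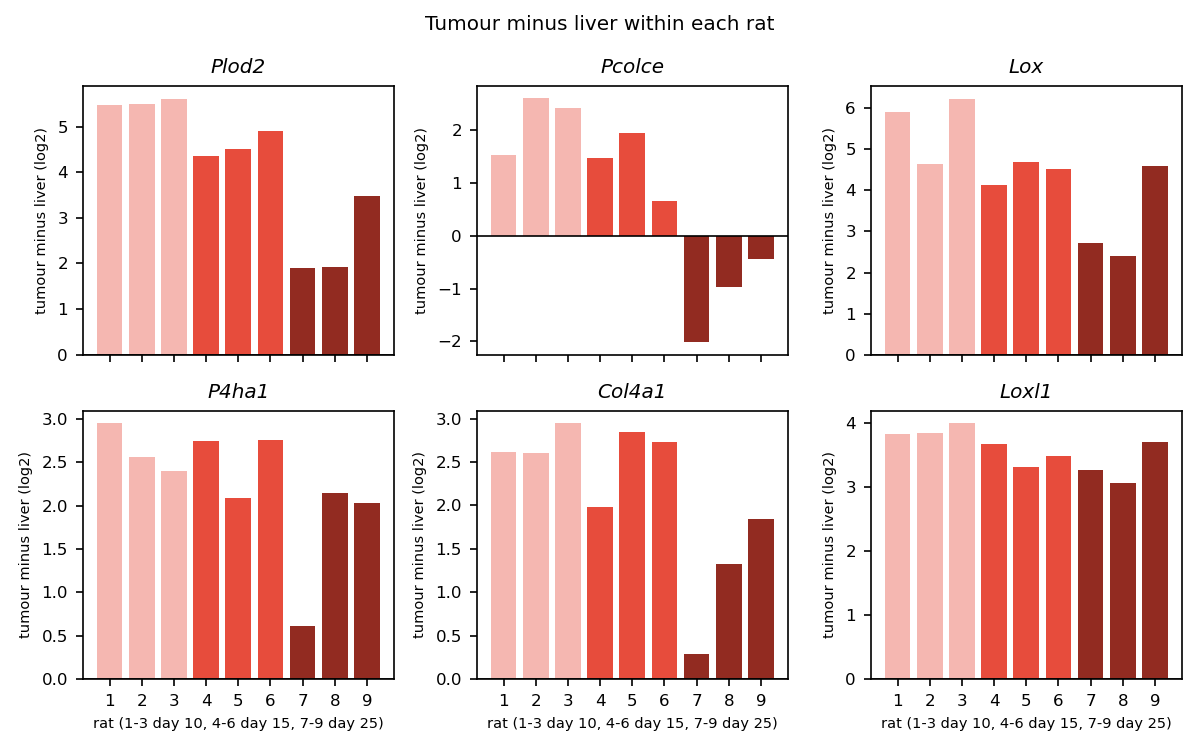
Tumour minus liver within each of the 9 rats (log2), for 6 genes; bars are single rats, coloured by day from light (day 10) to dark (day 25). Plod2 is 5.49 or more in rats 1 to 3 and 3.49 or less in rats 7 to 9, Pcolce is negative in rats 7 to 9, and Loxl1 stays between 3.06 and 3.99.

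Other genes of the collagen pathway were taken from lists that hold none of the 52. Of 16 measured partners in folding and modification, 8 were higher in tumour over all days and 5 lower, against 36.8% and 37.8% of all genes, with a median difference of 0.25. P4ha3, a further prolyl 4-hydroxylase chain, was higher by 2.55 (SE 0.25), Fkbp10, a collagen prolyl isomerase, by 2.45 (SE 0.28) and P3h4, part of a lysyl hydroxylation complex, by 2.14 (SE 0.32). Tmem38b, a channel of the endoplasmic reticulum, was lower by 1.60 (SE 0.14). Hspa5 and P4hb, which serve secreted proteins in general, were lower by 0.57 and 0.44, and Ppib, a prolyl isomerase, was not called (0.21).

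Of 5 measured genes for secretion and end trimming, Sparc, a collagen-binding matrix protein, was higher by 2.54 (SE 0.20), while Mia2, Sec24d and Mia3, which carry large cargo out of the endoplasmic reticulum, were lower by 1.22, 0.62 and 0.59. Bmp1, the protease that Pcolce assists, did not pass the test (-0.05, SE 0.16). Of 5 receptors, 4 were higher: Ddr2 (2.02), Itga11 (1.67), Itgb1 (1.29) and Ddr1 (1.05). Of 7 collagen-degrading proteases, 5 were higher, Mmp2 by 3.94 (SE 0.25), Fap by 2.15, Ctsk and Mmp9 by 2.01 each and Mmp14 by 1.19. Fap is also on the list of myofibroblast and fibroblast genes. Over all genes, 36.8% were higher in tumour and 37.8% lower. In the livers between days 10 and 25, 1 gene of these lists was called, Mmp14, higher by 0.86 (SE 0.25). No gene of these lists was called between metastasis and tumour or between tumours of days 10 and 25.

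Several genes have more than 1 probe set, and the results above use the one with the highest mean. Of 18 such genes, 14 had all probe sets called in the same direction when tumour was set against liver, and none had probe sets called in opposite directions. The sizes could still differ, either way. Col12a1 was higher by 3.35 with the probe set used and by 1.76 and 0.81 with its others. Col15a1 was higher by 4.44 with the one used and by 5.62 with its dimmer one. The gap for Serpinh1 is given with the single days. For Col11a1, P4ha2 and Col4a6 another, dimmer probe set was not called. Col14a1 was the reverse case, since its second probe set was called lower (-0.56, adjusted p = 0.039). The lower level of Col18a1 was shared by both its probe sets.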

How the data were processed

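Labelled RNA from 21 tissue samples of 9 rats was hybridised to Affymetrix rat arrays. The deposited values are log2 levels per probe set, and per the submitters' processing notes they come from RMA, with no program stated there. RMA aligns the distribution of every array, so it can take out part of a shift that most genes share. Gene names came from the platform annotation, updated through gene identifiers in RefSeq's GRCr8 gene table. Where several probe sets named only that gene, the brightest on average stood for it, which gave 14218 genes from 20832 probe sets; 436 probe sets with several symbols and 9831 not listed were left out.

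All arrays were fitted as 7 group means with limma 3.58.1 (lmFit, eBayes without a trend) in R 4.3.3, with Benjamini-Hochberg adjustment over the 14218 genes and calls at an adjusted p under 0.05. The script was tested on simulated data. The number of arrays limits the precision. The titles of the livers name the samples that they pair with, so tissues of 1 rat are paired. Of 15 pairs of arrays of 1 rat, deviations from the group means correlated above 0.1 in 10 (range 0.04 to 0.58). A fit with rat as a block was an alternative. Other alternatives changed the normalization, the probe set, the filter on low levels, the variance prior, the array weights, the samples fitted and each array in turn. The labels give no scan date or batch.

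The genes, classes and lists were chosen with earlier results of these data known. In each comparison values are given for up to 10 called genes per direction with the largest change, up to 5 uncalled genes with the highest mean, and 8 core genes (Col1a1, Col1a2, Col3a1, Col4a1, Col4a2, Lox, Loxl2 and Serpinh1); further values are given so that every gene is accounted for. From the pathway lists up to 4 called genes with the largest change and the uncalled gene with the highest mean are named. Promoter windows came from RefSeq's GRCr8 table; those of 11 genes, Col1a1, Col3a1 and Lox among them, were not used here.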

Additional observations from a re-analysis of the deposited data

Results flagged for a closer look

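For Plod2 the difference between tumour and liver was smaller at day 25 than at day 10 by the test of that change itself (-3.10, SE 0.65, adjusted p = 0.031 by limma), in a setting where 1.09% of all genes were called lower and 0.373% higher. The difference was positive in all 9 rats. Of 23 alternatives, 9 lost the call. Plod2 was 5.93-fold higher in the livers of day 25 than in those of day 10, while the tumours of these days were not called different.

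For Pcolce tumour minus liver was positive in all 3 rats of day 10 and negative in all 3 rats of day 25. The test of the change gave -3.33 (SE 0.81, adjusted p = 0.052 by limma), and an adjusted p of 0.0165 with rat as a block; 7 alternatives called it, with adjusted p of 0.00136 to 0.0457. No other gene of the 52 met either criterion. No gap between arrays was tested as an outlier, since every group holds 3 arrays.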

How the results depend on the processing

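The 29 genes higher in tumour over all days numbered 27 to 31 under the alternatives tried, and none of the 39 called genes changed sign there. Counts of lower genes shrink when low genes are left out, since fewer are then tested: from 10 to 2 over all days, from 8 to 1 at day 10, from 4 to 1 at day 15, from 5 to 2 at day 25, from 8 to 2 in metastasis against liver, and from 1 to 0 in liver over time. The causes of the other shifts below were not tested. No share of all genes is given for the alternatives, so their counts cannot be set against a background.

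With arrays centred on their median, 7 genes were lower at day 15, 9 at day 25, and 2 had a smaller tumour-liver gap at day 25. Quantile normalization left 5 lower in metastasis against liver and 2 lower by 2-fold over all days, and fits on the compared groups alone gave 4 lower in metastasis against liver, 0 lower in liver over time and 3 with a smaller gap. With array weights, 7 were lower at day 15; 9 were higher (3 by 2-fold) and 9 lower in metastasis against tumour; 6 were higher and 1 lower in tumours over time; 15 were higher in liver; and 2 gaps were wider and 10 smaller. Without the 3 arrays with acinar transcripts, 2 were higher in tumours over time, 2 lower by 2-fold over all days, 1 gap was wider and 3 were smaller. With low genes left out 2 gaps were smaller.

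With rat as a replicate block, 4 gaps were smaller instead of 1; the other counts stayed within 1.5 times. Leaving out 1 array at a time gave 2 to 12 genes higher and 0 to 1 lower in liver over time, 0 to 1 wider and 0 to 2 smaller gaps, and 1 to 2 lower by 2-fold over all days.

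Among the genes with values in each comparison, signs changed as follows; Col11a1 at day 15 and Col4a6 in metastasis against liver were the only called ones. In metastasis against tumour, Col1a1 became 0.0065 (median-centred), 0.076 (mean of probe sets), 0.16 (dimmest probe set) and 0.21 (array weights), Col1a2 0.054, 0.15 and 0.15 (the last 3), Col3a1 0.0085 (median-centred) and 0.16 (weights), Lox 0.0015 (weights) and Loxl2 -0.031 (quantile), -0.61 (weights, called) and -0.14 (without acinar arrays). Without 1 array those differences ran from -0.49 to 0.70 (Col1a1), -0.39 to 0.47 (Col1a2), -0.35 to 0.50 (Col3a1), -0.54 to 0.15 (Col4a1), -0.66 to 0.047 (Col4a2), -0.13 to 0.72 (Col5a2), -0.48 to 0.50 (Lox), -0.63 to 0.50 (Loxl2) and -0.60 to 0.95 (Serpinh1).

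In tumour against liver, Col14a1 became 0.18 over all days (weights), -0.30 at day 10 and -0.062 at day 15 (dimmest probe set), and Col11a1, called at day 15, -0.041 with that probe set; Plod1 became 0.086 at day 25 and 0.048 for metastasis against liver (weights). Without 1 array Col14a1 ran from -0.21 to 0.24 and Col20a1 from -0.045 to 0.0014 over all days, Col20a1 from -0.055 to 0.061 at day 10, and Plod1 from -0.19 to 0.12 at day 25 and from -0.25 to 0.16 for metastasis against liver. Col4a6, called there, became 0.043 with its dimmest probe set. In tumours over time Col4a1 became -0.066 (mean of probe sets), -0.21 (dimmest) and -0.055 (without acinar arrays), and Col4a2 -0.0066 (without acinar arrays); without 1 array Col3a1 ran from -0.50 to 0.048, Col4a1 from -0.12 to 0.41 and Col4a2 from -0.11 to 0.51. Serpinh1 in liver over time became -0.095 with its dimmest probe set.

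No detection calls were used, so differences among the 17 genes below the lowest array median in every group cannot be read as expressed or absent, and 3 arrays a group leave wide errors where rats differ, as in the tumours and metastases of day 25.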
